A study of Mus musculus with 9 samples.

Results

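Mast cells of mice carrying AhR-d, an allele of the aryl hydrocarbon receptor gene Ahr, were compared with mast cells of normal control mice, with 3 Illumina mouse Ref-8 beadchips per genotype. The comparison takes 6 of the 9 arrays of the series, and the other 3 hold AhR null cells. All genotypes carry the strain label C57BL/6J. The cells were grown from bone marrow for 4 weeks in medium containing 30% supernatant of WEHI-3, a line that secretes interleukin-3, then purified with beads that take out other cells and kept for 4 h in cytokine-free medium, with no AhR ligand named in the labels. Each of the 3 culture batches gave 1 array per genotype, and arrays were paired by batch. Whether batches came from separate or pooled animals, the animals' age, and whether AhR-d mice carry other DNA linked to the allele are not given in the sources used here. The p-values of the main fit reflect spread between cultures after shifts shared by a batch are removed, estimated from all 9 arrays. Whether that spread includes differences between animals is not known.

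AhR is a ligand-activated transcription factor. After binding a ligand in the cytoplasm it moves to the nucleus, pairs with ARNT and binds short xenobiotic response elements near its target genes, among them those of cytochrome P450 enzymes and of its own repressor, Ahrr. The d allele, known from strains such as DBA/2, encodes a receptor that binds dioxin-like ligands with lower affinity than the b-type receptor of C57BL/6 mice, so that higher doses are needed to induce its targets. Mast cells are resident immune cells that store histamine and proteases in granules and release them through the high-affinity IgE receptor.

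A probe counted as detected on an array when its detection p-value was under 0.01, and probes detected on 3 or more of the 6 arrays were kept. This left 8841 of 25697 probes, or 6846 features after the brightest probe of each gene was taken, of which 6323 were named genes and 523 unnamed probes. The 542 probes detected on exactly 3 arrays, just inside the rule, had median levels of 6.04 in AhR-d and 6.03 in control on the normalised log2 scale, and the 646 detected on exactly 2 arrays, just outside it, had medians of 5.79 in AhR-d and 5.70 in control. Mean raw signal was 493 ± 176 in AhR-d and 404 ± 108 in control arrays (SD, n = 3 each), and an exact permutation test (two-sided) gave p = 0.6, with 0.1 the lowest it could reach. The number of arrays limits precision throughout.

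Of the 6846 features, 114 (1.67%) passed a Benjamini-Hochberg adjusted p under 0.05 in the limma fit with batch as a block. AhR-d cells were higher in 80 (1.17%) and lower in 34 (0.497%). The absolute log2 difference of the 114 had a median of 1.32 and ran from 0.49 to 3.83, against a median signed difference of -0.02 over all features. All 114 had 1 sign in the 3 batches, and in 92 of them the AhR-d and control arrays did not overlap. Over all features, AhR-d arrays lay wholly above control in 4.78% and wholly below in 5.77%. Of the 26 tested features (0.38%) detected on every AhR-d and no control array, 12 passed, and of the 15 (0.219%) detected on every control and no AhR-d array, 3 passed. Such features passed the detection rule only through the group where they are high. The named genes among the 114 number 105, of which 71 were higher and 34 lower. Without the batch block 26 features (0.38%) passed, 21 higher and 5 lower, all of them among the 114. Median scaling gave 55 higher and 7 lower calls, and leaving out the background correction gave 74 higher and 50 lower. Leaving out AhR-d replicate 2, AhR-d replicate 3 or control replicate 1 left 60, 67 and 49 calls in that order.

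**Figure D1:**
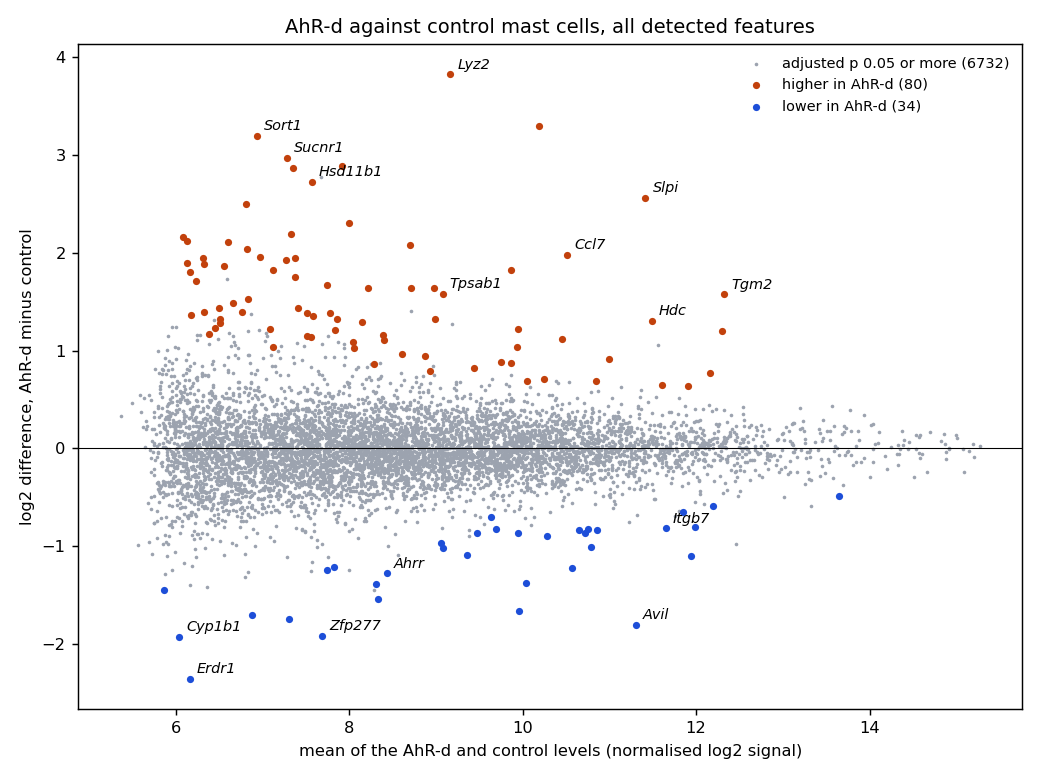
Log2 difference, AhR-d minus control, against the mean level of each of the 6846 detected features in normalised log2 signal. Orange points are the 80 features higher in AhR-d cells and blue points the 34 that were lower, at adjusted p under 0.05. Among the coloured points Erdr1 is the lowest and Lyz2 the highest.

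The receptor itself could not be followed. The only probe of Ahr was detected on none of the 6 arrays, with detection p-values from 0.115 to 0.833, so it checks no label. Cyp1a1, the P450 enzyme most used as a readout of AhR activity, was also not detected on any of them (0.539 to 0.925). Sex-linked transcripts followed the batches rather than the genotypes: Xist, from the inactive X chromosome, was at 4.81, 9.64 and 4.74 in AhR-d batches 1 to 3 and at 5.00, 9.65 and 4.76 in control. Eif2s3y, a Y-linked gene, was at 10.54, 4.46 and 10.54 in AhR-d and at 10.52, 4.97 and 11.07 in control. Batch 2 was thus the Xist-positive batch in both genotypes, which the pairing by batch holds constant.

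Of 19 genes of the AhR battery, meaning genes known to be driven by the receptor, 10 were measured. None was higher, 2 were lower, and 8 did not pass, with a median difference of -0.25, where 0.497% of all features were lower and 1.67% were called in either direction. The genes that fell were Ahrr, which encodes the AhR repressor, and Cyp1b1, a P450 enzyme that metabolises oestrogens and polycyclic hydrocarbons. Their promoter windows are shown because both are textbook AhR targets, with that of Sucnr1, a receptor gene high in AhR-d cells, set beside them. Each window is the RefSeq sequence of GRCm38.p6 from 250 bases before the transcription start to 50 after it, 5′ to 3′ on the gene's strand, and capitals mark the core of the xenobiotic response element, GCGTG, on either strand (CACGC on the other one). The Ahrr window lies at chr13:74292282-74292581 (minus strand), the Cyp1b1 window at chr17:79715012-79715311 (minus strand) and the Sucnr1 window at chr3:60081619-60081918 (plus strand).
Ahrr: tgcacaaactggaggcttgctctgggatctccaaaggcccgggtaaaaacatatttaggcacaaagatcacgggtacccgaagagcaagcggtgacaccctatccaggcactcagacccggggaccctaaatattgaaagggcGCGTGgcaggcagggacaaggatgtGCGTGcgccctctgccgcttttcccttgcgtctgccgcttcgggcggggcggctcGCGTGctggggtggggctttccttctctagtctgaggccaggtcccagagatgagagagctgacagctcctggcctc
Cyp1b1: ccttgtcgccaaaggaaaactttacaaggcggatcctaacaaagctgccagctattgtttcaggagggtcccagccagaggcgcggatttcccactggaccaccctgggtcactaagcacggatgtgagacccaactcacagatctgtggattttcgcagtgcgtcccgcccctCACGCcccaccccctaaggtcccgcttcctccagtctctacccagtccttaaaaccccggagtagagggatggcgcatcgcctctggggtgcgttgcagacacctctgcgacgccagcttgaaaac
Sucnr1: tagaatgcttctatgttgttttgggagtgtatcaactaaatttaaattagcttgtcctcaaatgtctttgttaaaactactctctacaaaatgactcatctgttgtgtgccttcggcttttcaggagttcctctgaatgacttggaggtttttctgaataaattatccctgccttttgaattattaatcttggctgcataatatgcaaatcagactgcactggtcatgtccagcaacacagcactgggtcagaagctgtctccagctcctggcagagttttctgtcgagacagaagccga

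The Ahrr window holds 3 copies of the core, the Cyp1b1 window 1 and the Sucnr1 window 0. The core is common: 35.2% of the 27025 genes with a RefSeq promoter carry it in this window, as do 3042 of 5235 tested genes with a promoter (58.1%). Among genes that were lower in AhR-d cells 16 of 29 carried it (55.2%), and among genes that were higher 23 of 54 did (42.6%). A match describes these letters only and is not a binding site.

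Ahrr stood at 7.96, 7.32 and 8.10 in AhR-d batches 1 to 3, against 8.96, 9.06 and 9.20 in control, a difference of -1.28 (SE 0.25, adjusted p = 0.0138). Every AhR-d array lay below every control array. Cyp1b1 stood at 5.27, 4.75 and 5.20 in AhR-d cells, on no array above the detection threshold, against 8.05, 6.07 and 6.88 in control, where all 3 arrays detected it. It was therefore at least 1.96-fold lower in AhR-d cells (adjusted p = 0.0205). Such a bound divides the mean of the detecting group by the mean of the other group after each of that group's arrays was raised, where needed, to its dimmest detected probe. Aldh3a1, an aldehyde dehydrogenase of the same battery, stood at 8.76, 8.17 and 7.33 in AhR-d cells, against 8.81, 9.32 and 8.77 in control. Its difference of -0.88 (SE 0.34) had an adjusted p of 0.319, with batch differences of -0.05, -1.15 and -1.43. For Nqo1, a quinone reductase, the difference was -0.55 (SE 0.27, adjusted p = 0.442, 95% interval -1.14 to 0.03). Tiparp, an ADP-ribosyltransferase induced by AhR, differed by -0.06 (SE 0.30, adjusted p = 0.973, interval -0.69 to 0.58), and Arnt, the partner of AhR, by -0.38 (SE 0.39, adjusted p = 0.764). The Arnt probe was detected on only 2 AhR-d arrays and 1 control array, and the other probe of Arnt on none of the 6. Without the block the adjusted p was 0.0566 for Ahrr and 0.117 for Cyp1b1. Leaving out 1 array ended the call of Ahrr in 5 of 6 cases (any control array or replicate 1 or 2 of AhR-d, with adjusted p 0.0524 to 0.138) and that of Cyp1b1 in 5 of 6 (any AhR-d array, control replicate 1 or control replicate 3, with 0.0604 to 0.194).

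The AhR null arrays give a scale for these values, with control arrays shared by both comparisons. Ahrr was detected on no AhR null array (5.54, 5.43 and 5.15), which puts AhR-d cells at least 4.26-fold above AhR null cells (adjusted p of the difference 3.91e-05). Aldh3a1 was at 5.85, 5.90 and 6.80 in AhR null cells, below its AhR-d level (adjusted p = 0.00347), as was Nqo1 at 5.97, 5.78 and 5.51 (adjusted p = 0.00956). Cyp1b1 was detected in neither genotype. Over all features tested, 1471 (21.5%) passed for AhR null against control, and 476 (6.95%) passed for AhR null against AhR-d.

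Avil, Asphd2, Hgfac, Cd96 and Nxpe4, none of them in the battery list, were lower in AhR-d cells than in control and higher than in AhR null cells. Avil encodes advillin, an actin-severing protein of the villin family, Hgfac a protease that activates hepatocyte growth factor, and Cd96 an immunoglobulin-superfamily receptor best known from T and natural killer cells. Avil stood at 11.10, 9.16 and 10.93 in AhR-d cells, against 12.27, 11.86 and 12.48 in control (difference -1.81, SE 0.24, adjusted p = 0.000937). In AhR null cells it was detected on no array, so that AhR-d cells were at least 25.8-fold above AhR null cells (adjusted p = 8.16e-09). The AhR-d arrays thus lay wholly below control and far above AhR null, with replicate 2 lowest among them. Asphd2 stood at 9.34, 8.46 and 9.56 in AhR-d cells, against 11.02, 10.26 and 11.08 in control (-1.67, SE 0.26, adjusted p = 0.00269), and was at least 10.7-fold above its undetected signal in AhR null cells (adjusted p = 1.62e-07). Hgfac stood at 9.84, 9.19 and 9.01 in AhR-d cells, against 11.30, 10.49 and 10.37 in control (-1.38, SE 0.22, adjusted p = 0.00269), with AhR null cells at 5.76, 5.85 and 5.85 (adjusted p of AhR null against AhR-d 1.19e-07). The AhR-d and control arrays of both genes were apart.

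Cd96 stood at 8.14, 6.87 and 7.67 in AhR-d cells, against 8.76, 8.78 and 9.78 in control (-1.54, SE 0.31, adjusted p = 0.0176), and Nxpe4 at 7.59, 7.02 and 8.21, against 9.30, 8.27 and 9.42 (-1.39, SE 0.29, adjusted p = 0.0202). Their groups also did not overlap. AhR null cells detected neither, and AhR-d cells were at least 3.62-fold above them for Cd96 (adjusted p = 7.46e-05) and at least 3.74-fold for Nxpe4 (adjusted p = 0.000169). Itgb7, the integrin chain used by mast cell progenitors to enter mucosal tissue, stood at 11.47, 10.79 and 11.47 in AhR-d cells, against 12.17, 11.78 and 12.23 in control (-0.82, SE 0.16, adjusted p = 0.0134). Without the block Avil had an adjusted p of 0.0996, Cd96 0.104, Nxpe4 0.155 and Itgb7 0.409, while Asphd2 and Hgfac passed. With 1 array left out, Avil and Asphd2 passed each time. Hgfac missed it without control replicate 1 (0.0520), Cd96 without replicate 2 or 3 of either genotype (0.0730 to 0.141), Nxpe4 without AhR-d replicate 1 or 2 or control replicate 1 or 3 (0.102 to 0.168), and Itgb7 without any AhR-d array or control replicate 1 or 2 (0.0516 to 0.123).

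**Figure D2:**
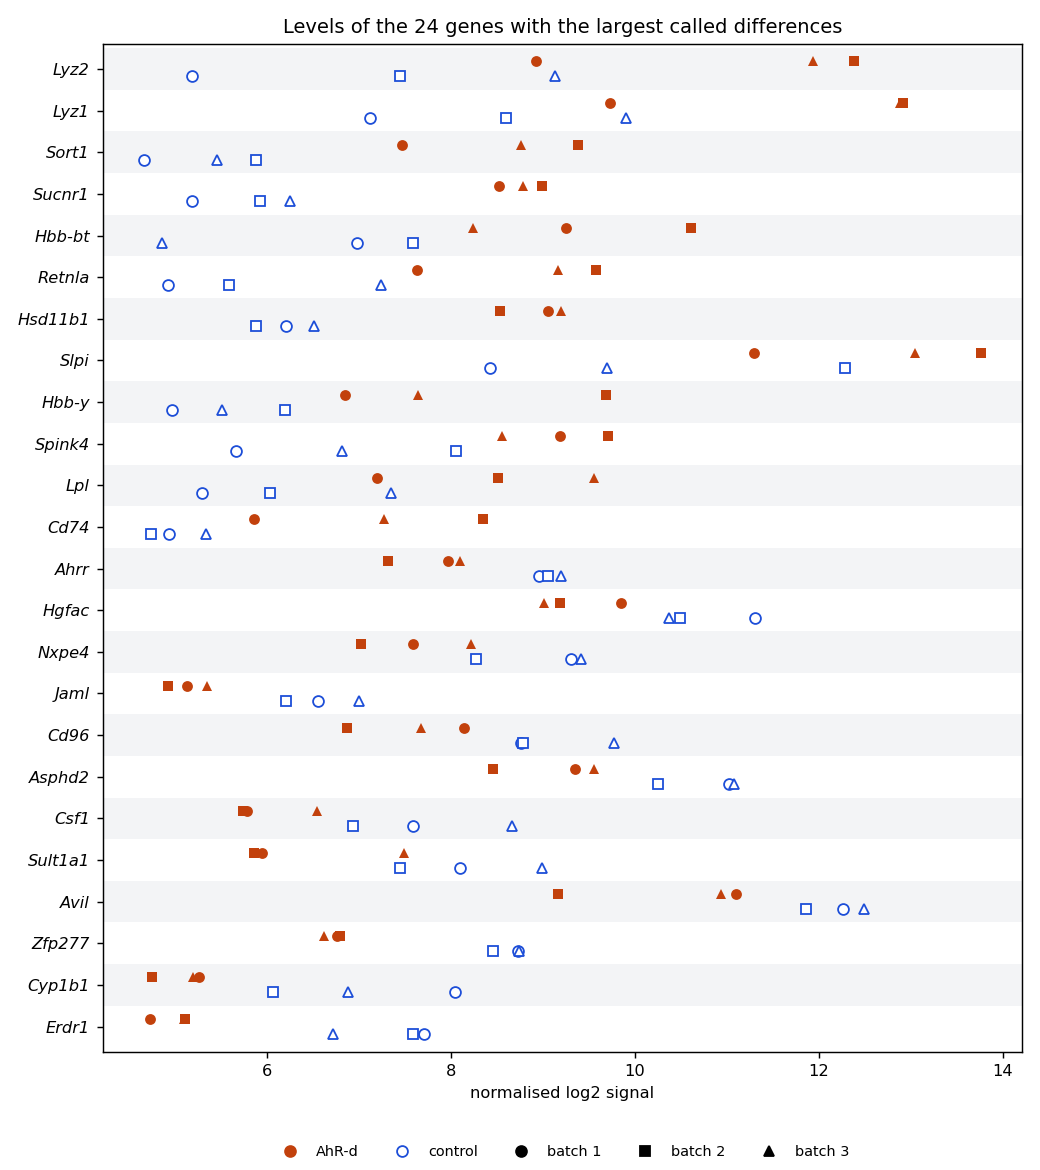
Normalised log2 signal of the 12 genes with the largest called differences in each direction, with filled orange symbols for AhR-d and open blue symbols for control arrays. Circles, squares and triangles mark batches 1, 2 and 3. Sucnr1, Sort1 and Hsd11b1 show AhR-d arrays wholly to the right of control, and Zfp277, Avil and Asphd2 show them wholly to the left.

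Other genes that were lower in AhR-d cells than in control showed no call between AhR-d and AhR null cells. Csf1, the growth factor of macrophages, stood at 5.78, 5.74 and 6.54 in AhR-d cells, against 7.59, 6.94 and 8.67 in control (-1.71, SE 0.29, adjusted p = 0.00495). Its AhR-d arrays lay below every control array, while its difference from control was -1.86 in AhR null cells (adjusted p of AhR null against AhR-d 0.804). Sult1a1, a phenol sulfotransferase, stood at 5.95, 5.86 and 7.49 in AhR-d cells, against 8.10, 7.45 and 8.995 in control, with overlapping groups (-1.75, SE 0.26, adjusted p = 0.00188). Among AhR null arrays Sult1a1 differed from control by -1.74 (adjusted p of AhR null against AhR-d 0.987). Jaml, an adhesion molecule of leukocytes, was detected on every control and no AhR-d array and was at least 1.47-fold lower in AhR-d cells (adjusted p = 0.0442). Tnfaip3, which encodes the NF-kappaB inhibitor A20, stood at 10.39, 10.60 and 10.33 in AhR-d cells, against 11.49, 11.33 and 11.003 in control (-0.84, SE 0.16, adjusted p = 0.0138), without overlap. Tnfaip3 was the 1 gene of 23 measured early-response genes that passed, against 1.67% of all features, and the median of that list was 0.07. Without the block Csf1 had an adjusted p of 0.194, Sult1a1 0.325, Jaml 0.117 and Tnfaip3 0.117. Median scaling and the deposited values gave no call for Tnfaip3 (1.00 and 0.440). The call of Csf1 ended without control replicate 1 (0.0561), that of Tnfaip3 without AhR-d replicate 1 or 3 or control replicate 1 or 2 (0.0670 to 0.104), and that of Jaml without any 1 array (0.1003 to 0.162).

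Sucnr1, Sort1 and Hsd11b1 were among the genes that rose. Sucnr1 encodes the G-protein-coupled receptor for succinate. It stood at 8.52, 8.99 and 8.79 in AhR-d cells, against 5.19, 5.93 and 6.26 in control, where 1 array detected it (difference 2.97, SE 0.22, adjusted p = 4.59e-06). The AhR-d arrays were close together and far above control, and AhR null cells were higher again, at 10.81, 10.76 and 10.81 (adjusted p of AhR null against AhR-d 5.85e-05). Sort1 encodes sortilin, a receptor that sorts proteins to lysosomes and granules. It stood at 7.47, 9.38 and 8.76 in AhR-d cells, against 4.67, 5.89 and 5.46 in control (3.20, SE 0.28, adjusted p = 2e-05), without overlap. No control array detected that probe, so Sort1 was at least 5.47-fold higher in AhR-d cells. A further probe of Sort1, detected on 1 control array, differed by 2.41. Hsd11b1, the enzyme that regenerates active glucocorticoid inside cells, stood at 9.05, 8.54 and 9.20 in AhR-d cells, against 6.21, 5.88 and 6.52 in control (2.73, SE 0.23, adjusted p = 1.24e-05). Of its 3 other probes 2 were kept and differed by 2.41 and 2.82, and the remaining, dimmer one, detected on 2 AhR-d and 0 control arrays, stood at 5.98, 6.22 and 5.05 in AhR-d cells, against 4.80, 5.02 and 4.90 in control. AhR null cells were above AhR-d cells for Sort1 (adjusted p = 0.0139) and Hsd11b1 (adjusted p = 0.00696) as well. Insyn1, a gene of inhibitory synapses, and Aard were detected on every AhR-d and no control array. Insyn1 was at least 2.96-fold higher in AhR-d cells (adjusted p = 0.0017) and Aard at least 2.14-fold (adjusted p = 0.00215). All of these genes passed without the block and in every fit with 1 array left out.

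Of 19 measured G-protein-coupled receptors and their partners 2 rose, Sucnr1 and Ramp1, and the list's median was 0.02. Over all features 1.17% rose and 0.497% fell, the shares against which this and the other list counts are set. Sucnr1 and Ramp1 were each detected on 3 AhR-d arrays and 1 control array. Both met the detection rule only with the AhR-d arrays, where they are high, so the count of risen receptors depends on that rule. Ramp1, which encodes a part of the receptor for the neuropeptide CGRP, stood at 7.02, 7.99 and 7.46 in AhR-d cells, against 4.83, 6.22 and 5.83 in control (1.86, SE 0.26, adjusted p = 0.00153). The groups were apart, and AhR null cells were higher than AhR-d cells (9.14, 9.17 and 9.19, adjusted p = 0.0011). Of 28 measured adhesion molecules and tetraspanins 3 rose (Nrp1, Cd81 and Tspan32) and 1 fell (Itgb7), with a median of 0.01. Nrp1, neuropilin-1, a co-receptor for semaphorins and vascular growth factors, stood at 8.15, 8.60 and 8.29 in AhR-d cells, against 6.49, 6.77 and 5.94 in control (1.95, SE 0.29, adjusted p = 0.00215), with no overlap. Its probe was detected on 3 AhR-d and 2 control arrays, so Nrp1 too met the rule only with the AhR-d arrays. Cd81 stood at 13.18, 13.05 and 12.49 in AhR-d cells, against 11.56, 11.29 and 12.25 in control (1.20, SE 0.21, adjusted p = 0.00678). Tspan32 stood at 9.98, 10.88 and 10.81 in AhR-d cells, against 8.94, 9.26 and 9.80 in control (1.22, SE 0.19, adjusted p = 0.00251). Both encode tetraspanins, membrane proteins that organise receptors, and AhR-d arrays lay above control in both. Without the block Tspan32 missed the threshold (0.0768), and the call of Cd81 ended without AhR-d replicate 1 or 2 or control replicate 1 (0.0581 to 0.0824).

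Hdc, histidine decarboxylase, the enzyme that makes histamine, rose. It stood at 11.66, 12.74 and 12.01 in AhR-d cells, against 10.71, 11.24 and 10.55 in control (1.30, SE 0.15, adjusted p = 0.000149), with the groups apart. AhR null cells were higher than AhR-d cells (adjusted p = 1.75e-05), and Hdc was the 1 gene that passed among 13 measured genes of amine synthesis and granules (median 0.10), where 1.67% of all features passed. Tpsab1, a tryptase gene counted below with the granule proteases, also rose. The mast cell markers Fcer1a and Ms4a2 were present and close to control. Fcer1a, the IgE-binding chain of the high-affinity receptor, stood at 14.94, 14.99 and 14.76 in AhR-d cells, against 15.02, 15.03 and 14.51 in control (0.04, SE 0.15, adjusted p = 0.948, interval -0.27 to 0.35). Ms4a2, its beta chain, differed by 0.14 (SE 0.15, adjusted p = 0.786, interval -0.18 to 0.45). Of 21 measured mast cell identity genes 1 rose (Hdc), 0 fell and 20 did not pass, and none of 26 measured genes of IgE receptor signalling passed (median -0.02).

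Of 9 measured granule proteases 2 rose and none fell, against 1.17% and 0.497% of all features. Prss34, a tryptase-like protease (mMCP-11) also made by basophils, stood at 8.66, 10.62 and 10.11 in AhR-d cells, against 7.25, 9.50 and 7.72 in control (1.64, SE 0.28, adjusted p = 0.00497). Tpsab1, a tryptase, stood at 10.37, 10.21 and 9.03 in AhR-d cells, against 8.68, 9.43 and 6.74 in control (1.58, SE 0.34, adjusted p = 0.0258), and its probe may also bind the near-identical Tpsb2. In both genes the groups overlapped and the rise was within each batch. The chymase Mcpt4 differed by 2.78 (adjusted p = 0.0602), Mcpt8 by 1.27 (0.373) and the cathepsin Ctsg by -1.17 (0.189), none past the threshold. Cpa3, carboxypeptidase A3, among the brightest probes on these arrays, stood at 14.61, 14.96 and 15.34 in AhR-d cells, against 15.28, 15.02 and 15.34 in control (-0.25, SE 0.13, adjusted p = 0.492). Without the block the adjusted p was 0.325 for Prss34 and 0.344 for Tpsab1. The call of Prss34 ended without AhR-d replicate 3 or control replicate 1 (0.0533 and 0.0771) and that of Tpsab1 without any AhR-d array, control replicate 1 or control replicate 3 (0.0605 to 0.161).

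Ccl7, Slpi and Spink4, which encode secreted proteins, rose. Ccl7, a chemokine that attracts monocytes, stood at 10.84, 12.18 and 11.50 in AhR-d cells, against 8.82, 9.71 and 10.04 in control (1.98, SE 0.20, adjusted p = 6.26e-05). The groups did not overlap, and the difference from control was 2.02 in AhR null cells (adjusted p of AhR null against AhR-d 0.939). Of 18 measured cytokines and chemokines Ccl7 rose, Csf1 fell and 16 did not pass (median -0.02). Slpi, an inhibitor of neutrophil elastase, stood at 11.29, 13.76 and 13.05 in AhR-d cells, against 8.43, 12.28 and 9.69 in control, with overlap (2.56, SE 0.44, adjusted p = 0.00572). Spink4, a Kazal-type protease inhibitor, stood at 9.19, 9.71 and 8.55 in AhR-d cells, against 5.67, 8.05 and 6.82 in control, without overlap (2.30, SE 0.29, adjusted p = 0.000573). Control batch 2 was the highest control array of both inhibitors. Without the block the adjusted p was 0.253 for Slpi and 0.0756 for Spink4, while Ccl7 passed (0.0198). The call of Slpi ended without AhR-d replicate 3 or control replicate 1 or 3 (0.0568 to 0.0940).

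Zfp277, Erdr1, Retnla, Lpl and Mmp12 passed the test in AhR-d cells against control and also between AhR null and AhR-d cells, and did not pass in AhR null cells against control. Zfp277, a zinc finger protein gene, stood at 6.76, 6.80 and 6.62 in AhR-d cells, against 8.73, 8.46 and 8.74 in control (-1.92, SE 0.20, adjusted p = 6.63e-05). It was at 8.58, 8.55 and 8.64 in AhR null cells, a difference of -0.05 from control (adjusted p = 0.87), and AhR null and AhR-d cells differed (adjusted p = 5.4e-05). The arrays of each genotype lay close together, and the call stood without the block and in every other setting tried. Its other 2 probes were detected on none of the 6 arrays. Zfp277 lies on chromosome 12, near Ahr. Of 52 tested features within 20 megabases of Ahr 2 were called, Zfp277 and Fam177a, against 1.67% of all features and 3 of 204 (1.47%) on chromosome 12. The other 50 differed by -0.43 to 0.84, with a smallest adjusted p of 0.0797. Fam177a stood at 9.62, 9.81 and 10.07 in AhR-d cells, against 10.85, 10.69 and 10.67 in control (-0.90, SE 0.17, adjusted p = 0.0111), and a further probe differed by -1.13. Its difference from control in AhR null cells was -0.33 (adjusted p of AhR null against AhR-d 0.0557). Fam177a lost its call with the deposited values (0.418), with median scaling (0.936), without the block (0.0727), and without AhR-d replicate 1 or control replicate 1 or 2 (0.0660 to 0.0905).

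Erdr1, a gene of the pseudoautosomal region, was detected on every control and no AhR-d array, at 4.73, 5.11 and 5.10 in AhR-d cells, against 7.71, 7.59 and 6.72 in control. It was at least 2.47-fold lower in AhR-d cells (adjusted p = 0.00572), and 2 of 3 AhR null arrays detected it (-0.88 from control, adjusted p = 0.138, and adjusted p of AhR null against AhR-d 0.0423). Retnla, which encodes the secreted resistin-like molecule alpha of alternatively activated macrophages, stood at 7.63, 9.58 and 9.16 in AhR-d cells, against 4.93, 5.59 and 7.24 in control (2.87, SE 0.44, adjusted p = 0.00251), without overlap. No AhR null array detected Retnla (adjusted p against control 0.41), and AhR-d cells were at least 8.47-fold above AhR null cells (adjusted p = 0.000211). Lpl, lipoprotein lipase, which releases fatty acids from circulating lipoproteins, stood at 7.20, 8.51 and 9.56 in AhR-d cells, against 5.29, 6.04 and 7.35 in control, with overlap (2.19, SE 0.33, adjusted p = 0.00215). Mmp12, macrophage elastase, stood at 6.42, 7.38 and 7.43 in AhR-d cells, against 4.96, 4.98 and 5.60 in control, where no array detected it, and was at least 1.99-fold higher in AhR-d cells (adjusted p = 0.00954). Both were higher than in AhR null cells (adjusted p = 0.0159 for Lpl and 0.0342 for Mmp12), which differed from control by 0.74 for Lpl (adjusted p = 0.126) and 0.56 for Mmp12 (0.276). Without the block Lpl and Mmp12 lost their calls (0.3 and 0.117), Erdr1 lost its call without AhR-d replicate 1 (0.0552), and Mmp12 lost it without AhR-d replicate 2 (0.125).

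**Figure D3:**
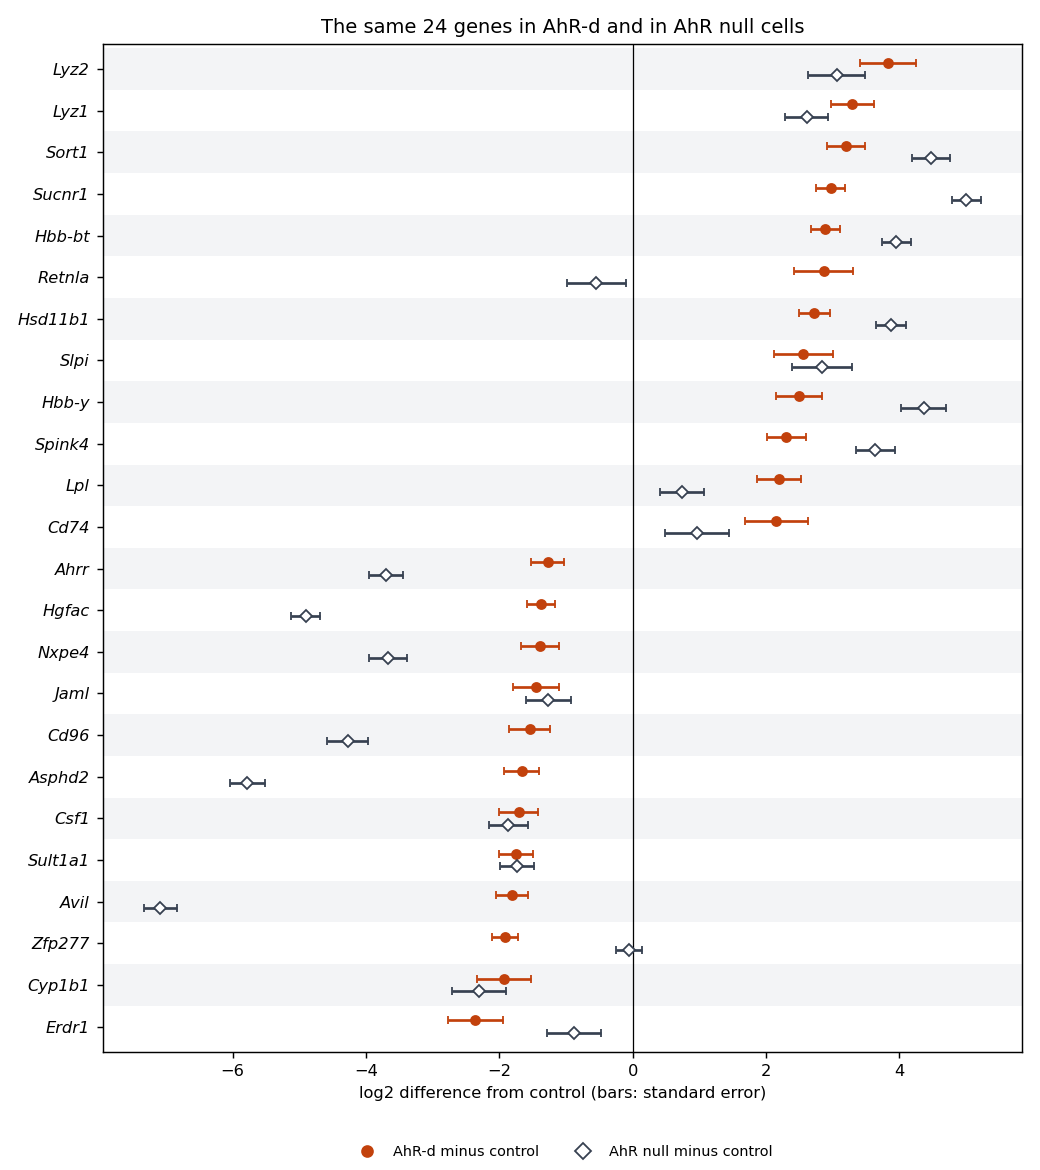
Fitted log2 difference from control, with standard errors, of the same 24 genes in AhR-d cells (filled orange circles) and AhR null cells (open diamonds). Both use the same 3 control arrays. The diamonds of Avil, Asphd2, Cd96, Nxpe4, Ahrr, Retnla, Jaml and Cyp1b1 rest on signals that no AhR null array detected. Avil lies far left of its AhR-d circle in AhR null cells, and the diamonds of Zfp277 and Retnla lie near 0, away from their circles.

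Transcripts of other blood cells moved with genotype and with single arrays. In bulk RNA, fewer cells of a type and less RNA per cell cannot be told apart. Of 18 monocyte and macrophage markers on the array 7 were measured, of which 5 rose and 2 did not pass (median 1.88, against 1.17% of all features that rose), while 8 others, among them Mrc1, Msr1, Ccr2 and C1qa, were detected on none of the 6 arrays. Apoe, Retnla and Clec4n were each detected on 3 AhR-d arrays and 1 control array, and Lyz2 on 3 and 2. These genes met the detection rule only with the AhR-d arrays, where they are high, so the count and median depend on that rule. Among members detected on all 6 arrays Lyz1 rose, while Adgre1 (0.66, adjusted p = 0.51) and Cx3cr1 (-0.53, adjusted p = 0.215) did not pass. The summed linear signal of the 18 markers ran from 2885 to 16151 in AhR-d cells and from 1290 to 3896 in control cells. Lyz2, lysozyme of myeloid cells, had the largest difference of all features. It stood at 8.92, 12.38 and 11.94 in AhR-d cells, against 5.18, 7.45 and 9.13 in control, with overlap (3.83, SE 0.42, adjusted p = 0.000135). Lyz1, a near-identical copy whose probe may share transcripts with it, stood at 9.73, 12.91 and 12.88 in AhR-d cells, against 7.12, 8.60 and 9.91 in control (3.30, SE 0.32, adjusted p = 4.31e-05). Apoe, apolipoprotein E, stood at 6.99, 8.31 and 6.48 in AhR-d cells, against 4.76, 6.45 and 4.93 in control (1.88, SE 0.28, adjusted p = 0.00214), without overlap. Retnla and Clec4n, a C-type lectin receptor outside the naming rule (1.53, adjusted p = 0.0135), were the other called markers. Cd74, the invariant chain of class II antigen presentation, was detected on every AhR-d and no control array (5.86, 8.35 and 7.28 in AhR-d, against 4.94, 4.74 and 5.34 in control) and was at least 2.11-fold higher in AhR-d cells (adjusted p = 0.0306). Its other probe, detected on 2 AhR-d and 0 control arrays, stood at 5.36, 7.93 and 6.76, against 5.32, 5.54 and 5.72. Of 18 measured antigen presentation genes Cd74 alone rose, against 1.17% of all features. Of the class II genes, H2-Ab1 differed by -0.53 (adjusted p = 0.425), and H2-Aa, below the detection rule, was detected on 2 AhR-d and 0 control arrays. Tlr2, a receptor for bacterial lipoproteins, stood at 6.28, 8.49 and 7.09 in AhR-d cells, against 4.79, 5.99 and 5.25 in control, and was at least 2.30-fold higher (adjusted p = 0.0133).

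None of 17 neutrophil markers on the array passed the detection rule, and 9 were detected on none of the 6 arrays, Csf3r, Cxcr2 and Ngp among them. S100a8, a calcium-binding protein of neutrophils, stood at 4.65, 11.27 and 11.63 in AhR-d cells, against 4.58, 4.55 and 4.82 in control, and S100a9, its partner, at 4.58, 9.42 and 9.48, against 4.50, 4.71 and 4.72. AhR-d replicates 2 and 3 were the arrays of the 6 that detected them. The summed signal of the list ran from 221 to 5378 in AhR-d cells and from 205 to 236 in control cells. Prg2, an eosinophil granule protein, had the same shape, at 4.67, 10.60 and 8.36 in AhR-d cells, against 4.58, 4.55 and 5.01 in control, as did the platelet chemokine Pf4, at 4.62, 7.92 and 7.70, against 4.68, 4.94 and 5.31. Of 9 eosinophil markers on the array 0 passed the detection rule, and Alox15, Il5ra, Prg3 and Siglecf were detected on none of the 6 arrays. The same held for the platelet markers Ppbp, Gp1bb and Treml1, while Gp9 was detected on 1 AhR-d array. Itga2b (0.09, adjusted p = 0.919) and Vwf (-0.71, adjusted p = 0.571) did not pass. Of 12 lymphocyte markers 11 were detected on none of the 6 arrays.

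S100a8 was undetected in both genotypes in batch 1. The differences in that batch, which is part of the fit and whose sign is shared by all 114 calls, were 3.34 for Sucnr1, 2.80 for Sort1, 2.84 for Hsd11b1, 2.02 for Ccl7, 3.74 for Lyz2, 2.70 for Retnla and 0.95 for Hdc, and -1.97 for Zfp277 and -1.16 for Avil. Without AhR-d replicates 2 and 3 together, a setting chosen after the data were seen, 17 features passed, 13 of them among the 114. With the mean of the 17 neutrophil markers as a covariate 22 features passed, 18 of them among the 114. Of the genes described, Sucnr1, Sort1, Hsd11b1, Ccl7, Spink4, Zfp277, Lyz1 and Hbb-bt passed in both settings, while Avil had a covariate-adjusted p of 0.242, Hdc 0.0872, Lyz2 0.101 and Retnla 0.326. The covariate ended the calls of 32 of the 43 called genes that the naming rule took. Among them were the battery genes Ahrr and Cyp1b1, as well as Asphd2, Hgfac, Cd96, Nxpe4, Insyn1, Aard, Ramp1 and Nrp1. The covariate itself varied with genotype. It was 4.84, 6.53 and 6.56 in AhR-d batches 1 to 3, 4.78 to 4.86 in control and 5.69 to 5.90 in AhR null cells. A call that it ended therefore cannot be assigned to genotype or to marker level. The part of other cells in the differences from control was not tested. Without the block Lyz2 (0.117), Lyz1 (0.118), Apoe (0.168), Clec4n (0.203), Cd74 (0.194) and Tlr2 (0.132) did not pass. Lyz1, Lyz2, Apoe and Retnla passed with each array left out, whereas Clec4n failed without AhR-d replicate 2 or control replicate 1 or 2 (0.0568 to 0.130), Cd74 without replicate 2 or 3 of either genotype (0.0805 to 0.249), and Tlr2 without AhR-d replicate 2 or 3 or control replicate 1 or 3 (0.0565 to 0.130).

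**Figure D4:**
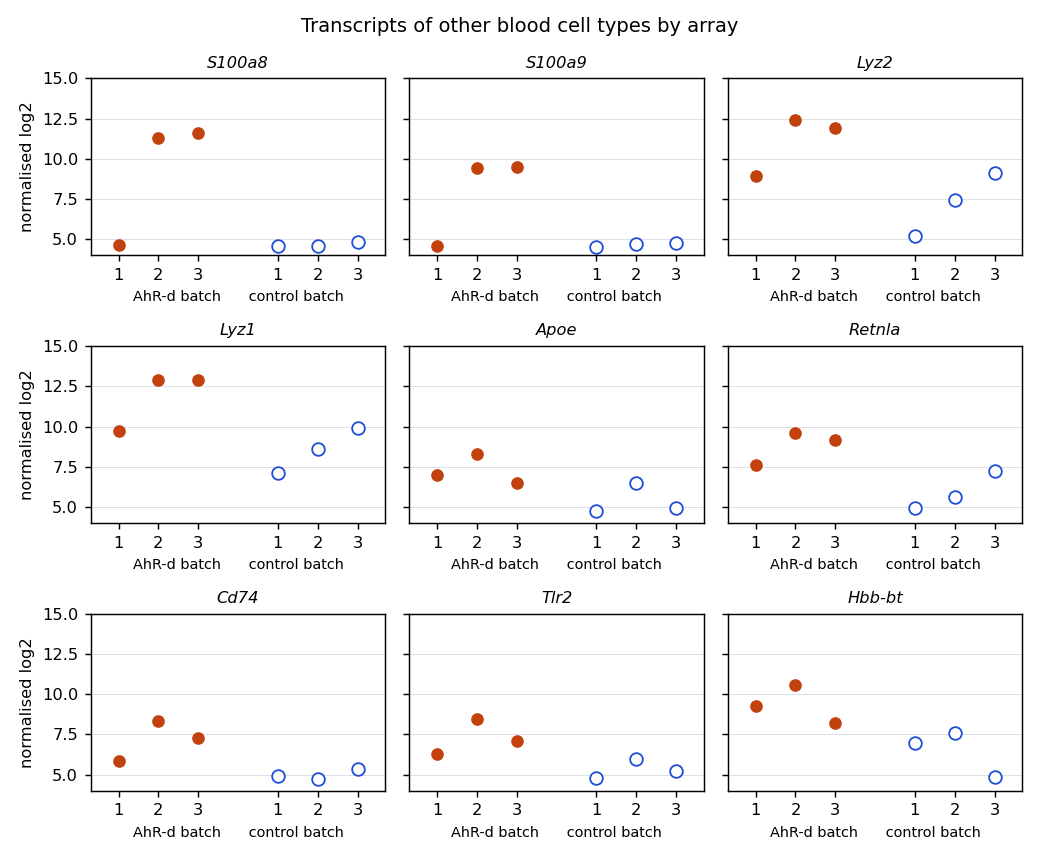
Normalised log2 signal on each array for 9 transcripts known from other blood cell types, with AhR-d batches 1 to 3 at the left (filled orange) and control batches 1 to 3 at the right (open blue) of each panel. S100a8 and S100a9 are high on AhR-d arrays 2 and 3 and at background on the other 4, while Lyz2, Lyz1, Retnla and Hbb-bt are raised on all 3 AhR-d arrays relative to the control of the same batch.

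Red cell transcripts gave a further pair of rises. Hbb-bt, an adult beta-globin gene, stood at 9.25, 10.61 and 8.25 in AhR-d cells, against 6.98, 7.59 and 4.86 in control (2.89, SE 0.22, adjusted p = 4.59e-06). Hbb-y, an embryonic globin gene, stood at 6.85, 9.69 and 7.64 in AhR-d cells, against 4.98, 6.20 and 5.51 in control (2.50, SE 0.34, adjusted p = 0.00104). AhR-d arrays lay above control in both, but these globin genes are similar in sequence, so their probes may share transcripts. They were the 2 genes that rose among 9 measured red cell and megakaryocyte markers (median 0.09), and Alas2, the red cell enzyme of haem synthesis, was detected on none of the 6 arrays. Hbb-bt was detected on 3 AhR-d and 2 control arrays, and Hbb-y on 3 and 1. Both met the detection rule only with the AhR-d arrays, where they are high, so the count depends on that rule. Hba-a1, another globin gene detected on 3 and 1, differed by 1.18 and did not pass (adjusted p = 0.320). Without the block the adjusted p was 0.136 for Hbb-bt and 0.185 for Hbb-y.

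Several lists had no called gene, which at 1.67% of features called overall is near the count that lists of their size would hold. None of 67 measured respiratory chain genes passed (median 0.03), nor any of 30 proteasome genes, 29 antioxidant genes (0.08), 20 interferon-response genes (-0.02), 24 apoptosis genes (-0.01), 22 genes of the unfolded protein response (0.07), 15 cytokine receptors (-0.18), 12 progenitor genes (-0.14) or 28 lineage transcription factors (-0.13). Over all features 832 had an unadjusted p under 0.05. In the cell cycle list 1 of 34 measured genes passed, the ubiquitin-conjugating enzyme gene Ube2c (1.03, SE 0.24, adjusted p = 0.0468). Of its 34 differences 30 were positive, with a median of 0.30 against -0.02 over all features. Among all 6846 features 3202 differences were positive and 3644 negative. The call of Ube2c ended without any 1 array (0.0689 to 0.286) and without the block. In cholesterol and fatty acid synthesis 18 of 24 differences were negative (median -0.13) and none passed, the desaturase Scd1 coming closest at -0.90 (adjusted p = 0.0687). Slc2a1, the glucose transporter GLUT1, was the 1 of 25 measured genes of glucose metabolism that passed. It stood at 12.14, 12.89 and 12.60 in AhR-d cells, against 11.74, 11.58 and 11.99 in control (0.77, SE 0.16, adjusted p = 0.0243). Its call ended without the block (0.136) and without AhR-d replicate 2 or 3 or control replicate 1 or 2 (0.0568 to 0.208). The lysosomal enzyme Gusb was the 1 called gene of 41 in its list (0.70, SE 0.15, adjusted p = 0.0298), and its other probes differed by 0.19 and 0.31. The call of Gusb ended without AhR-d replicate 2 or 3 or any control array (0.0533 to 0.259).

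**Figure D5:**
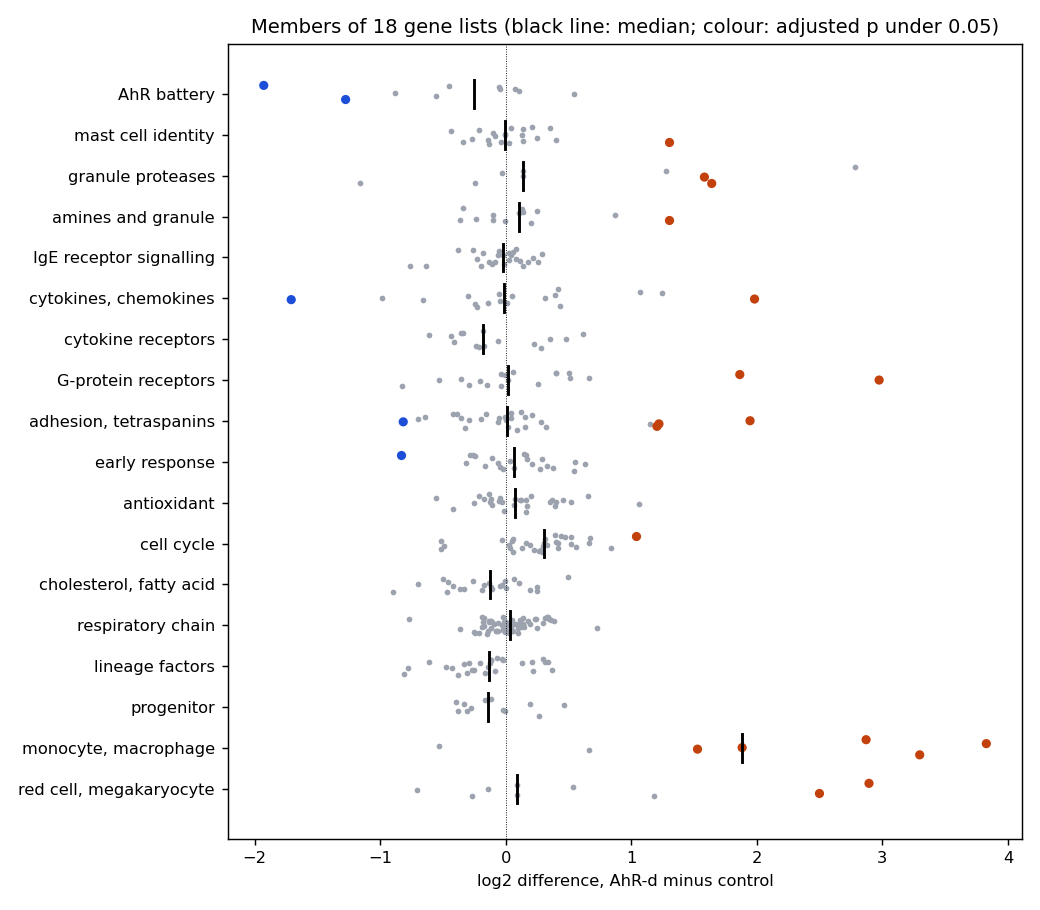
Log2 difference, AhR-d minus control, of every measured member of 18 gene lists, with a black line at each list's median. Coloured points passed an adjusted p of 0.05 (orange higher, blue lower in AhR-d cells). The monocyte and macrophage list has the highest median, 1.88, and the AhR battery the lowest, -0.25. The median of 1.88 rests on 7 measured members, of which Apoe, Retnla, Clec4n and Lyz2 met the detection rule only with the AhR-d arrays.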

How the data were processed

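Gene expression was measured in mast cells on 9 single-colour arrays, 3 per genotype. The deposited table holds linear intensity per probe with no scaling between arrays, each followed by a detection p-value, per the file headers, and the submitters' processing notes name GenomeStudio with no version. A deposited table of log2 values differed from the log2 of that intensity by 1 constant per array (0.231 to 0.928), which set each array's median to 8. A smaller deposited table, with intensity for 45 probes, matched the main one within 9e-04 and was not used further. No test is stated in these sources.

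Intensities of all 9 arrays were background-modelled by normexp from the detection p-values, offset by 16 and quantile-normalised to log2 (neqc, limma 3.58.1, R 4.3.3). Features were fitted with a mean per genotype and batch as a block, with 4 residual and a median of 10.8 prior degrees of freedom and variances moderated along an intensity trend. P-values were adjusted by Benjamini-Hochberg over all 6846 features. Adjusted p-values come from this limma fit or, where another setting is named, from a limma fit in that setting with its own adjustment. The script was tested on simulated data. Pairing by batch comes from the labels, and deviations of AhR-d and control arrays of 1 batch correlated at 0.19, 0.37 and 0.38, against -0.38 to 0.06 between batches. The platform annotation gave 23978 probes 1 symbol, 0 several and 1719 none, and 23962 matched RefSeq (GRCm38.p6), with 0 symbols changed.

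The genes named were the 12 largest called differences in each direction with 1 sign in 3 batches, up to 4 called members of each list, up to 6 genes per direction detected in 1 group only, called genes within 20 megabases of Ahr and 15 fixed genes. Members and lists were chosen with earlier results of these data known. Kit is not analysed here. Alternatives were other normalisations, filters, variance settings, covariates and arrays left out.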

Additional observations from a re-analysis of the deposited data

How the results depend on the processing

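With 3 arrays per genotype, the calls depended on the batch block and on single arrays. Of 43 named genes that were called, all 43 kept their direction in every setting run, 22 passed in every fit with 1 array left out, and 5 (Sucnr1, Sort1, Hsd11b1, Ccl7 and Zfp277) passed in every setting in which they were tested. Against 114 calls, 80 higher and 34 lower, the fit without the block gave 26, 21 and 5, where the spread between batches enters the error. The deposited values gave 61, 45 and 16, median scaling 62, 55 and 7 (where the median of all features was 0.16), no intensity trend 55, 38 and 17, and the filter on detection on all 6 arrays 71, 45 and 26, of fewer features tested. The fit of the 6 arrays alone gave 53 lower calls. The neutrophil covariate gave 22, 17 and 5. Leaving out 1 array gave 49 to 101 calls, 37 to 78 higher and 12 to 23 lower. Leaving out every array of batch 1, 2 or 3 gave 37, 110 and 79 calls (31 to 80 higher, 6 to 30 lower), and leaving out AhR-d replicates 2 and 3 together gave 17, 15 and 2; both settings were chosen after the data were seen. Cyclic loess, the brightness covariate, every probe in place of 1 per gene, no filter and no background correction gave totals within 1.5 times of 114. Genes near 0 or without a call changed sign in places, and the cause was not tested. Aldh3a1 was 0.036 without AhR-d replicates 2 and 3. Arnt ran from -0.80 to 0.16 with an array or a batch left out, with 0.08 without AhR-d replicate 3 and 0.16 without batch 3. Fcer1a ran from -0.14 (without control replicate 3) to 0.17, and was -0.064 with the neutrophil covariate, -0.017 without AhR-d replicate 2, -0.061 without batch 3 and -0.032 without AhR-d replicates 2 and 3. Ms4a2 ran from -0.049 (without AhR-d replicate 1) to 0.31 with an array or a batch left out, was 0.51 with the neutrophil covariate and 0.505 without AhR-d replicates 2 and 3 together, and was -0.023 without batch 1. Tiparp ran from -0.36 to 0.32, and was 0.10 with deposited values, 0.20 with median scaling, 0.051 with loess, 0.028 with the neutrophil covariate, 0.030 without AhR-d replicates 2 and 3, 0.22 without AhR-d replicate 3, 0.23 without control replicate 3 and 0.32 without batch 3. The deposited values ended the calls of Apoe, Fam177a, Gusb, Itgb7, Jaml, Ramp1, Slc2a1, Tnfaip3 and Ube2c (adjusted p 0.0679 to 0.442), and median scaling those of Ahrr, Cd96, Fam177a, Gusb, Hgfac, Itgb7, Jaml, Nxpe4, Slc2a1, Tnfaip3 and Ube2c (0.0771 to 1.00). Low signals limit precision: 3 of the 15 fixed genes (Ahr, Cyp1a1 and S100a8) fell below the detection rule.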

Other observations

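Called genes outside the naming rule, chosen after their values were seen, add further features of AhR-d cells. Tgm2, transglutaminase 2, a protein cross-linking enzyme, stood at 12.71, 13.74 and 12.91 in AhR-d cells, against 11.24, 12.29 and 11.09 in control (1.58, SE 0.14, adjusted p = 2.19e-05). Ngfr, the low-affinity receptor for nerve growth factor, stood at 9.36, 9.97 and 9.62 in AhR-d cells, against 7.88, 8.57 and 8.53 in control (1.32, SE 0.18, adjusted p = 0.00104). Twist2, a basic helix-loop-helix transcription factor, stood at 9.78, 9.86 and 8.97 in AhR-d cells, against 7.27, 8.64 and 7.78 in control (1.64, SE 0.24, adjusted p = 0.0017). AhR-d arrays lay above control in each of these genes, and each passed with any 1 array left out. Without the block Ngfr passed (0.0215), and Tgm2 (0.0760) and Twist2 (0.0768) did not. Syn2, a synapsin of synaptic vesicles, differed by 1.64 (SE 0.26, adjusted p = 0.00306) and Cntnap2, a neurexin-like adhesion protein, by 1.83 (SE 0.31, adjusted p = 0.00458). The call of Cntnap2 ended without control replicate 1 (0.0561).

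The circadian clock genes Per1 and Per2 were both lower in AhR-d cells. Per2 stood at 7.84, 6.61 and 7.21 in AhR-d cells, against 8.50, 7.96 and 8.86 in control (-1.22, SE 0.24, adjusted p = 0.0134), and Per1 at 9.30, 9.55 and 8.28, against 10.20, 10.14 and 9.39 (-0.86, SE 0.18, adjusted p = 0.0244). The groups overlapped for Per1 and not for Per2, and the other probe of each gene differed by -0.46 for Per1 and -0.56 for Per2. In AhR null cells Per1 differed from control by -0.77 and Per2 by -1.53. Neither gene passed without the block (0.700 for Per1 and 0.195 for Per2), with median scaling (1.00 and 0.627) or with the deposited values (0.869 and 0.422). The call of Per1 ended without any AhR-d array, control replicate 1 or control replicate 3 (0.0957 to 0.124), and that of Per2 without replicate 2 or 3 of either genotype (0.0609 to 0.118). Other genes that fell were Irs2, an adaptor of the insulin receptor (-1.23, SE 0.23, adjusted p = 0.0112), Emp1, a membrane protein (-1.01, SE 0.15, adjusted p = 0.00209), and the metallothionein Mt1 (-0.49, SE 0.12, adjusted p = 0.0468). Emp1 passed with any 1 array left out, Irs2 failed in 4 of 6 such fits (0.0683 to 0.110) and Mt1 in all 6 (0.0669 to 0.228).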
